A study of Homo sapiens with 8 samples.

Results

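The comparison described here is that of A549 cells with and without glucose after SRC-1 was knocked down. It rests on 4 of the 8 Affymetrix arrays of the series: 2 of cells given SRC-1 siRNA and medium without glucose, and 2 of cells given the same siRNA and medium with glucose. A549 is an established human lung adenocarcinoma line. SRC-1, the product of NCOA1, is a coactivator that nuclear receptors recruit to switch on transcription. Both groups carried the siRNA, were transfected with DharmaFECT 1 and spent 36 h in medium with 10% dialyzed serum before the change to DMEM with or without glucose and 10% dialyzed serum. The duration of that last step and the glucose concentration are not given in the sources used here. The series concerns SRC-1 and gene expression in either medium, and these 2 groups differ in glucose while SRC-1 is low in both. The 4 arrays with control siRNA entered the filter on dim signal, the choice of each gene's probe set and the estimate of spread between arrays. They also entered the check of NCOA1, the ranking of marker signals and the alternative processing. The differences themselves were taken between the 4 arrays with SRC-1 siRNA.

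All 41091 probe sets that the platform annotation ties to a single gene were members, out of 54675 probe sets on the array. They stand for 19775 genes, of which 13584 passed a filter on dim signal and were tested through their brightest probe set. Values are deposited log2 signals, so a difference of 1 is a doubling. Differences are with glucose minus without glucose, given ± SE from a limma fit, with 2 arrays per group throughout. A gene is said to have risen or fallen where its Benjamini-Hochberg adjusted p from limma was below 0.05. The labels call the arrays biological replicates and say no more about the cultures, so a p-value reflects only how far these arrays differed among themselves. No detection calls were at hand, so folds that involve dim signals may be too small.

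NCOA1 was low in every array with SRC-1 siRNA. Its main probe set read 5.22 and 5.09 without glucose and 5.47 and 5.18 with glucose, against 8.34, 8.24, 8.60 and 8.42 in the 4 arrays with control siRNA. Neither group overlapped with the controls, the 2 groups overlapped with each other, and their difference of 0.17 ± 0.11 was not called (adjusted p = 0.243, limma). When arrays were centred on ribosomal protein genes it was 0.32 and was called higher with glucose (adjusted p = 0.0415, limma). The identity of the cells was read from marker signals. All 8 epithelial markers examined, among them KRT8, KRT18 and EPCAM, lay above the filter, as did all 7 measured markers of A549 with active NRF2, whose summed signal was 95.68 and 95.89 without glucose and 97.16 and 97.3 with glucose. Of the defining markers of other cells, 2 of 6 for leukocytes, 3 of 6 for endothelium and 4 of 6 for fibroblasts lay above it. The summed signal of the epithelial list stayed between 80.08 and 80.21 over the 4 arrays, that of the leukocyte list between 24.5 and 25.2 and that of the endothelial list between 28.27 and 28.92. The fibroblast list summed to 30.78 and 31.78 without glucose and 32.46 and 32.74 with glucose, and its part in the results was not tested. The 3' minus 5' difference of GAPDH, a measure of RNA integrity, was 0.126 and 0.131 without glucose and 0.154 and 0.139 with glucose.

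Glucose starvation is a classical trigger of the unfolded protein response. Sugar is needed for the glycans of proteins made in the endoplasmic reticulum (ER), and misfolded proteins there engage the sensors IRE1, PERK and ATF6, which raise chaperones and slow translation. PERK and other kinases that phosphorylate the initiation factor eIF2 share an output through ATF4 and CHOP, known as the integrated stress response, which raises genes of amino acid supply. Proliferating cells deprived of fuel also tend to leave the cycle, and genes of DNA replication depend on E2F factors that growth signals release from the retinoblastoma protein family.

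In cells with low SRC-1, most tested genes of these stress responses were lower with glucose, and most of those of DNA replication, mitosis and lipid synthesis were higher. Of the 13584 genes tested, 6070 passed (44.7%), 3348 higher with glucose (24.6%) and 2722 lower (20.0%). At least 2-fold differences were seen in 320 genes that rose (2.36%) and 276 that fell (2.03%). The falls reached further than the rises. HSPA6 had the largest fall (48.6-fold) and PCGF3 the largest rise (5.61-fold). In all 6070 called genes, both arrays with glucose lay on the same side of both arrays without. Groups failed to overlap more often than calls were made, in 5119 genes higher with glucose (37.7%) and 4605 lower (33.9%). The median difference over all genes was 0.0059.

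**Figure D1:**
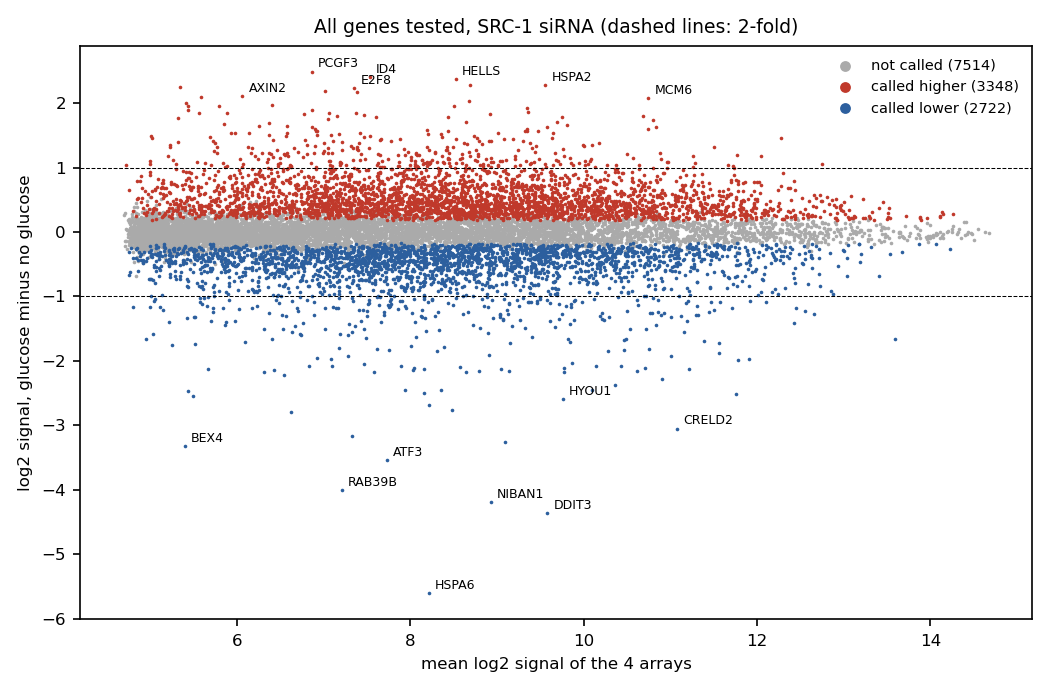
Each point is 1 of the 13584 genes tested in cells with SRC-1 siRNA; the horizontal axis gives its mean log2 signal over the 4 arrays and the vertical axis the log2 signal with glucose minus without. The falls extend to -5.60 for HSPA6, while no rise exceeds 2.49, and called genes lie at every level of signal.

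The 15 largest falls included several genes known to be induced by stress in the ER or the cytosol. HSPA6, a heat shock protein of the HSP70 family that is nearly silent in unstressed cells, read 11.23 and 10.80 without glucose and 5.39 and 5.42 with glucose. DDIT3, which encodes the transcription factor CHOP, read 11.78 and 11.74 without glucose and 7.39 and 7.42 with glucose. NIBAN1, a protein induced with ER stress, read 10.94 and 11.11 without glucose and 6.90 and 6.75 with glucose. In each of these the arrays with glucose were far below those without, with differences of -5.60 ± 0.29, -4.36 ± 0.086 and -4.20 ± 0.085 (adjusted p = 4.11e-06, 9.45e-08 and 9.45e-08, limma). RAB39B, a small GTPase of vesicle traffic, fell 16.1-fold, with both of its probe sets lower (-4.63 and -4.01). BEX4 and BEX2, small adaptor proteins encoded on the X chromosome, fell 10.0-fold and 9.56-fold. BEX4 read 6.98 and 7.15 without glucose and 3.77 and 3.71 with glucose, the latter pair dim. The remaining falls of this group were ATF3, CRELD2, HYOU1, HERPUD1 and ALDH1L2, taken up with their pathways below, and EML2-AS1 (-3.17 ± 0.15), the spexin hormone gene SPX (-2.77 ± 0.10), SNORC (-2.69 ± 0.10) and the lysosomal membrane protein LAMP3 (-2.54 ± 0.24). EML2-AS1 is an antisense transcript.

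The 15 largest rises included genes of chromatin and of the cell cycle. PCGF3, a subunit of Polycomb repressive complexes, read 5.58 and 5.65 without glucose and 8.10 and 8.11 with glucose, but only this probe set of its 3 rose, and another fell by 0.39. ID4, an inhibitor of basic helix-loop-helix factors, read 6.30 and 6.37 without glucose and 8.80 and 8.67 with glucose. HELLS, a chromatin remodeller that supports DNA methylation, read 7.26 and 7.42 without glucose and 9.93 and 9.49 with glucose, with 4 of its 5 probe sets higher. These groups were apart by several SE. HSPA2, a HSP70 relative, rose 4.87-fold while HSPA6 fell, so members of that family moved both ways. The zinc finger gene ZNF367 rose 4.86-fold, and E2F8, CCNE2, MCM6 and MCM10 of the cell cycle rose between 4.10-fold and 4.70-fold. The hyaluronan-binding protein gene CEMIP (2.09 ± 0.093, not called through probe sets free of _s_at and _x_at endings), RIBC2 (2.0 ± 0.13), the Wnt feedback genes RNF43 and AXIN2 and the oxygen sensor EGLN3 made up the rest, with a probe set annotated to MIR3682 (2.25 ± 0.14), which does not measure the mature miRNA.

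**Figure D2:**
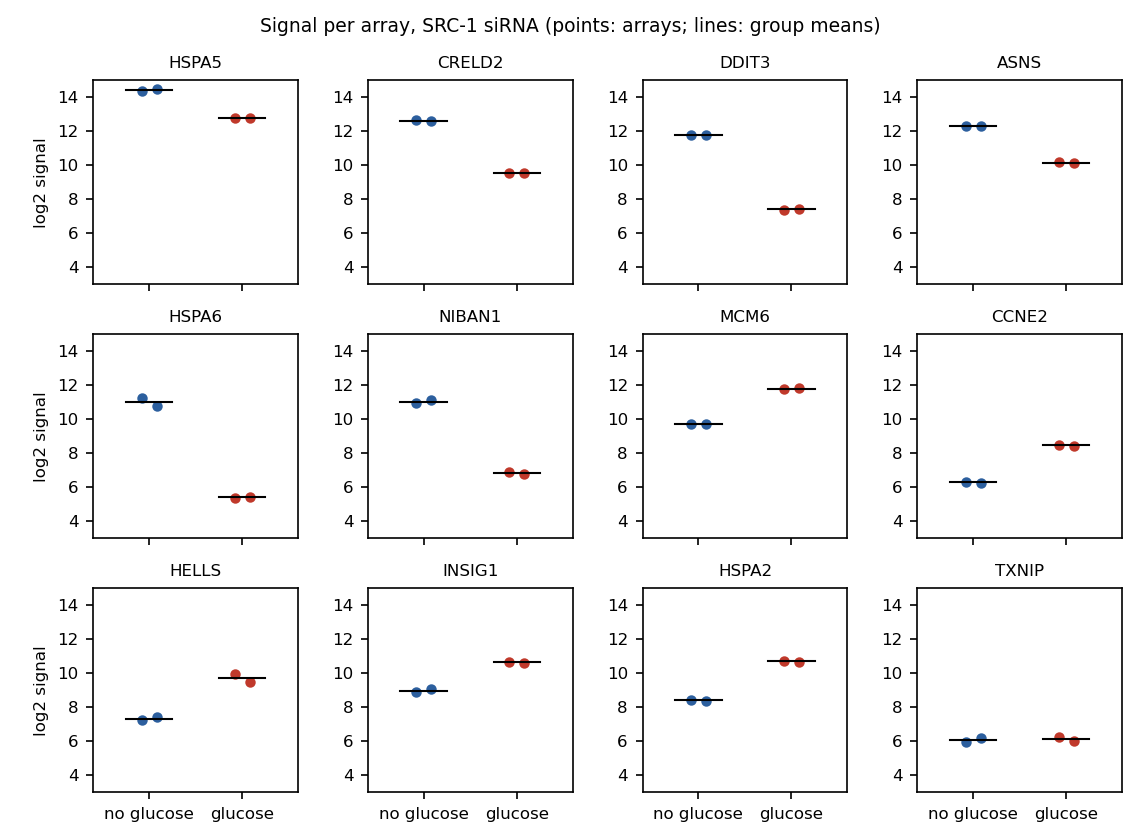
Points are log2 signals of the 2 arrays per group in cells with SRC-1 siRNA and lines are group means, for 12 genes. HSPA5, CRELD2, DDIT3, ASNS, HSPA6 and NIBAN1 are lower with glucose on both arrays, MCM6, CCNE2, HELLS, INSIG1 and HSPA2 are higher on both, and TXNIP overlaps between the groups.

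ER chaperones and folding enzymes fell almost as a group. Of 35 members tested, 30 fell, 1 rose and 4 were not called (3 rose under centring on ribosomal protein genes), with 16 down at least 2-fold. The list's median was -0.92, against 0.0059 over all genes. HSPA5, the HSP70 chaperone BiP that also holds the ER sensors inactive, read 14.38 and 14.46 without glucose and 12.77 and 12.74 with glucose. The arrays without glucose were close to the highest signal of any probe set on them (14.68), and its second probe set fell by 2.88 where the main one fell by 1.67. HSP90B1, the ER member of the HSP90 family, read 12.22 and 12.24 without glucose and 10.63 and 10.46 with glucose and fell 3.22-fold. PDIA4, a disulfide isomerase, fell 3.96-fold. All 3 changes were many times their SE of at most 0.074.

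Cofactors of these chaperones moved as far or further. CRELD2, a stress-induced ER protein, read 12.63 and 12.57 without glucose and 9.53 and 9.56 with glucose and fell 8.30-fold (adjusted p = 1.57e-07, limma). HYOU1, a large HSP70 relative that exchanges the nucleotide of BiP, read 11.04 and 11.07 without glucose and 8.43 and 8.50 with glucose, a difference of -2.59 ± 0.063. DNAJB11, a J protein that activates BiP, fell 3.67-fold, and MANF, a secreted ER stress factor, 3.92-fold. The HSP70 and HSP90 chaperones and their cofactors had a median of -1.66 over 16 members, against -0.69 over 17 disulfide and proline isomerases and oxidases, 13 of which fell. The lectin chaperone CALR read 10.74 and 10.70 without glucose and 9.71 and 10.01 with glucose, so its arrays with glucose were further apart from each other than those without. SDF2 alone rose (0.66 ± 0.068).

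The promoters of these genes are shown because the ER stress response element (ERSE), to which ATF6 binds together with NF-Y, is a defined sequence that can be read in them. It is searched here as CCAAT and CCACG parted by 9 bases, on both strands, in RefSeq promoters of GRCh38.p14 that run from 250 bases before to 50 after the first listed start of a gene. The 250 bases before the start follow on each gene's own strand, with matches in capitals.
HSPA5 (chr9:125241344-125241593, minus strand): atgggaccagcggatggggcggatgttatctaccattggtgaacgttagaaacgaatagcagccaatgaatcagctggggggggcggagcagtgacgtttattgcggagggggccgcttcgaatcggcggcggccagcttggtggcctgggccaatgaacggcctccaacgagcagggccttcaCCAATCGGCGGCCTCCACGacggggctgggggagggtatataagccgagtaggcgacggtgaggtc
HSP90B1 (chr12:103930160-103930409, plus strand): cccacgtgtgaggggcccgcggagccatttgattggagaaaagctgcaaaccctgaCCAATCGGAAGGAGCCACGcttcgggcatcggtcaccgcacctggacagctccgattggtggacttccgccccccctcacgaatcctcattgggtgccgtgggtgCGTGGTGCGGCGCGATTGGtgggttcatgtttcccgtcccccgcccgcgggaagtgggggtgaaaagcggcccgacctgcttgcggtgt
CRELD2 (chr22:49918384-49918633, plus strand): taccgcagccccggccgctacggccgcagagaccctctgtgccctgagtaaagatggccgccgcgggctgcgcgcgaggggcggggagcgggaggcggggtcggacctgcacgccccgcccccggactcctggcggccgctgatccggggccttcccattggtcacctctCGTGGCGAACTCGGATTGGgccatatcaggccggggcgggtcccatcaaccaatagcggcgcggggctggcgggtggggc
Counted from the start, the match begins at -66 in HSPA5 and, on the opposite strand, at -80 in CRELD2. HSP90B1 holds 2 matches on opposite strands, beginning at -194 and -89. Of 27305 promoters in the table, 22 hold the element (0.0806%), and of the 10911 tested genes with a promoter 14 do (0.128%). Among ER chaperones and folding enzymes it was found in 7 of 32 (21.9%), and all of those 7 genes (HSPA5, HSP90B1, CRELD2, SERP1, ERO1B, CALR and CANX) fell with glucose. Of the genes at least 2-fold lower, 6 of 223 hold it (2.69%), and of those at least 2-fold higher 0 of 272. A match is a sequence and not evidence of binding.

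Most genes of the machinery that removes misfolded proteins from the ER fell. Of 22 members of ER-associated degradation, 13 fell and 3 rose (median -0.27), or 9 and 5 when arrays were centred on ribosomal protein genes. HERPUD1, which organises the ubiquitin ligase complex, fell 5.73-fold (-2.52 ± 0.065). SEL1L, the partner of that ligase, read 11.60 and 11.71 without glucose and 9.88 and 9.80 with glucose, and all 4 of its probe sets fell. EDEM1, which recognises trimmed glycans, fell 2.44-fold. SELENOK, DERL2 and SELENOS, other membrane components, fell by between 1.09 and 1.5 on the log2 scale. By role, 10 of 14 membrane components fell and 2 rose (median -0.35), 3 of 5 glycan recognition genes fell and 0 rose (median -0.67), and of 3 extraction genes 0 fell and 1 rose. The 3 that rose were NPLOC4 (0.55 ± 0.084), a cofactor of the extracting ATPase, the conjugating enzyme UBE2G2 (0.67 ± 0.10) and the ligase MARCHF6 (0.83 ± 0.079), for which 1 of 3 probe sets fell.

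Sensors and membrane-bound factors of the unfolded protein response were themselves lower. Of 13 tested, 9 fell and 0 rose (median -0.80). ERN1, which encodes IRE1, read 9.07 and 9.14 without glucose and 7.09 and 6.84 with glucose, a 4.41-fold fall. EIF2AK3, which encodes PERK, read 10.07 and 10.12 without glucose and 9.19 and 9.07 with glucose. ATF6 read 8.73 and 8.86 without glucose and 8.06 and 7.89 with glucose, with all 4 probe sets lower. Thus the messages of all 3 classical sensors fell, ERN1 by the most. XBP1, whose message IRE1 splices, fell by 1.34 (SE 0.13), a level that does not tell spliced from unspliced forms. The related factors CREB3 (-0.80 ± 0.064), CREB3L4 (-0.94 ± 0.073), CREB3L2 (-0.67 ± 0.088) and CREBRF (-1.26 ± 0.09) fell too. MBTPS1 and MBTPS2, the proteases that release ATF6, differed by -0.016 ± 0.077 and 0.11 ± 0.067 and were not called, nor was ATF6B (-0.13 ± 0.098). Under centring on ribosomal protein genes MBTPS2 was called higher. WFS1 fell by 0.26, a call that was lost without the first array of either group.

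In the integrated stress response, factors and effectors fell while the other eIF2 kinases rose. Of 21 members 15 fell and 4 rose, with a median of -0.93. ATF4, whose product is controlled chiefly through translation, read 12.76 and 12.75 without glucose and 11.87 and 11.91 with glucose and fell 1.82-fold. ATF3, a factor induced by it, read 9.46 and 9.53 without glucose and 6.13 and 5.79 with glucose. PPP1R15A, which directs the phosphatase that resets eIF2, read 9.29 and 9.05 without glucose and 6.78 and 6.64 with glucose. The 2 groups of each were clearly apart, with falls of 11.6-fold for ATF3 and 5.49-fold for PPP1R15A. TRIB3, a pseudokinase that restrains AKT and ATF4, fell 3.32-fold, NUPR1, a small chromatin protein, 4.27-fold, CEBPG, a dimer partner of ATF4, 3.57-fold, and the glutathione-degrading enzyme CHAC1 2.66-fold. EIF4EBP1, which blocks cap-dependent translation, fell by 1.06. Of those that rose, EIF2AK2 (0.63 ± 0.098) encodes the RNA-activated kinase PKR, EIF2AK4 (0.47 ± 0.12) the amino acid sensor GCN2 and EIF2AK1 (0.26 ± 0.066) the heme-regulated kinase. EIF2AK4 was not called without the first array with glucose, and EIF2AK1 neither without that array nor without the second without glucose. ATF5 rose as well (0.70 ± 0.094), and without the first array with glucose the list had 2 rises.

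The growth arrest genes split as well. GADD45A, which slows the cycle under stress, read 11.71 and 11.82 without glucose and 9.64 and 9.66 with glucose, and GADD45B fell 2.14-fold, with all 4 probe sets lower. SESN2, a leucine-sensing brake on mTORC1 and a target of ATF4, read 8.24 and 7.99 without glucose and 6.65 and 6.82 with glucose. These fell while the related SESN3 (0.82 ± 0.097) and SESN1 (0.35 ± 0.079) rose, the latter not without the first array without glucose. DDIT4, another brake on mTORC1, fell by 0.51, and its relative DDIT4L rose by 0.50.

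Enzymes that make amino acids were mostly lower with glucose. Of 19 in the list of amino acid and one-carbon enzymes, 13 fell and 3 rose (median -0.65). ASNS, asparagine synthetase, read 12.27 and 12.29 without glucose and 10.18 and 10.13 with glucose, a 4.38-fold fall. PCK2, the mitochondrial phosphoenolpyruvate carboxykinase, read 9.86 and 9.88 without glucose and 7.68 and 7.74 with glucose. PHGDH, which commits a glycolytic intermediate to serine, read 9.55 and 9.55 without glucose and 8.11 and 8.0 with glucose. All 3 messages were thus higher in cells that lacked glucose. In the same pathways PSAT1 (-0.65 ± 0.097), SHMT2 (-0.92 ± 0.072) and MTHFD2 (-0.97 ± 0.092) fell, as did GOT1 (-1.26 ± 0.065) and the proline enzyme PYCR1 (-1.03 ± 0.081). The mitochondrial folate enzyme ALDH1L2 fell furthest and read 7.90 and 8.15 without glucose and 5.46 and 5.0 with glucose. The cytosolic counterparts SHMT1 (0.34 ± 0.075) and MTHFD1 (0.40 ± 0.069) rose, so within the folate cycle mitochondrial and cytosolic members were called in opposite directions. Glutamine synthetase, GLUL, rose by 0.69, a call lost when its probe sets were averaged.

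Amino acid transporters moved in no common direction. Of 22, 10 fell and 4 rose, and the median of -0.038 became 0.11, with 7 and 7 called, under centring on ribosomal protein genes. SLC6A15 (-1.71 ± 0.12), SLC1A4 (-1.21 ± 0.091), SLC7A1 (-0.99 ± 0.081) and the shared heavy chain SLC3A2 (-0.84 ± 0.063) fell. SLC7A6 rose (1.09 ± 0.13). SLC7A5, the leucine carrier that pairs with SLC3A2, differed by 0.086 ± 0.062 (95% interval -0.057 to 0.23) and was not called, although its partner fell. Under centring on ribosomal protein genes SLC7A5 was called higher.

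Most cytosolic tRNA synthetases were lower with glucose and most mitochondrial ones were not called. In the cytosol 12 of 17 fell and 2 rose (median -0.55), whereas among 15 mitochondrial enzymes 3 fell and 2 rose (median 0.028). The difference between the lists was not tested. WARS1, for tryptophan, read 11.99 and 11.95 without glucose and 10.07 and 10.03 with glucose. SARS1, for serine, read 11.61 and 11.50 without glucose and 10.03 and 10.18 with glucose. AARS1, for alanine, read 11.93 and 11.84 without glucose and 10.54 and 10.47 with glucose. None of the 3 overlapped between the media, and their falls were 3.80-fold, 2.72-fold and 2.60-fold. GARS1 (-1.23 ± 0.072), CARS1 (-1.21 ± 0.07) and EPRS1 (-0.83 ± 0.066) fell, and RARS1, for arginine, rose (0.38 ± 0.069). The second rise, HARS1 (0.21 ± 0.072), was lost without the second array with glucose, without either array without glucose and without any 1 control array, which left 1 rise. Of the mitochondrial enzymes LARS2 rose (0.84 ± 0.075) and WARS2 fell (-0.52 ± 0.064). Without the first array without glucose, 1 mitochondrial enzyme in place of 3 was called lower, and under centring on ribosomal protein genes 5 rose and 1 fell.

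The C/EBP-ATF response element (CARE), which ATF4 and its partners bind, was searched as TGATGNAAN on both strands. The ASNS promoter is shown since its element lies in an established ATF4 target.
ASNS (chr7:97872409-97872658, minus strand): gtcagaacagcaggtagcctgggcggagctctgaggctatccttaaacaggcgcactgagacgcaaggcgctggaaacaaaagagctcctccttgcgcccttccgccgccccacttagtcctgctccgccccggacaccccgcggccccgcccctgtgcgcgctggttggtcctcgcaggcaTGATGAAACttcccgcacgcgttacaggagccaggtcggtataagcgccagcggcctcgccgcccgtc
The match in capitals begins at -68 from the start. Among cytosolic tRNA synthetases 5 of 14 promoters hold the element (35.7%), against 210 of 10911 tested genes (1.92%) and 1002 of all 27305 promoters (3.67%). It was in 14.3% of amino acid and one-carbon enzymes, the list of ASNS (2 of 14), 17.6% of integrated stress response factors and 17.6% of amino acid transporters (3 of 17 each). Lists not known for it also held it, among them NADH shuttles (2 of 9) and nuclear receptor coregulators (3 of 17). The shuttle genes with a match were SLC25A11 and GOT1, the latter also named above with the amino acid enzymes. In the genes at least 2-fold lower the share was 5.83% (13 of 223), and in those at least 2-fold higher 0.735% (2 of 272).

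Genes of DNA replication rose nearly as a group. Of 49 members 44 rose, 0 fell and 5 were not called, with 28 up at least 2-fold and a median of 1.07. The licensing and helicase genes had a median of 1.46 over 21 members and the fork and polymerase genes 0.81 over 28. MCM6, a subunit of the replicative helicase, read 9.71 and 9.69 without glucose and 11.75 and 11.83 with glucose. MCM10, which starts that helicase, read 7.68 and 7.64 without glucose and 9.70 and 9.69 with glucose. CDT1, which loads it, read 7.44 and 7.65 without glucose and 9.34 and 9.33 with glucose. The 3 rose 4.24-fold, 4.10-fold and 3.46-fold. MCM3 (1.53 ± 0.069) and MCM7 (1.46 ± 0.066) rose likewise, and PCNA, the sliding clamp, read 11.50 and 11.60 without glucose and 13.04 and 12.97 with glucose and rose 2.74-fold. CDC6, the other loading factor, read 9.72 and 9.79 without glucose and 9.71 and 9.69 with glucose and was not called (-0.056 ± 0.075), so it did not follow its partner CDT1. GINS2 rose by 1.53 on its brightest probe set, while the brightest probe set without an _s_at or _x_at ending differed by -0.027.

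Supply of deoxynucleotides rose and part of the purine and pyrimidine pathway fell. Of 21 genes 14 rose and 4 fell (median 0.31). RRM2, the S-phase subunit of ribonucleotide reductase, read 11.44 and 11.48 without glucose and 12.64 and 12.64 with glucose, and RRM1 rose by 0.81. Thymidylate synthase TYMS (0.77 ± 0.066), DUT (0.68 ± 0.069) and the kinase DCK (0.94 ± 0.077) rose. The 4 falls were CTPS1, which makes CTP (-1.10 ± 0.07), IMPDH2 of guanine nucleotide synthesis (-0.62 ± 0.077), and GART (-0.43 ± 0.077) and ADSL (-0.37 ± 0.065) of purine synthesis.

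The promoter of MCM6 is printed because it holds E2F sites, searched as TTTCGCGC, TTTGGCGC, TTTCCCGC or TTTGCCGC on both strands. Forms on opposite strands can overlap, and do so here.
MCM6 (chr2:135876444-135876693, minus strand): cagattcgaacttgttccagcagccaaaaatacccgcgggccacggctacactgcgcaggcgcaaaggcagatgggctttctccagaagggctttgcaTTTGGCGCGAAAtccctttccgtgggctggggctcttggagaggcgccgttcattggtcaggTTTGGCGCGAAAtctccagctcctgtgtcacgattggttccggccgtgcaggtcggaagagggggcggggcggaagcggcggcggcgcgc
The capitals mark 2 stretches, each with a site on either strand, whose matches begin at -152 and -148 and then at -90 and -86 from the start. Of the replication genes 18 of 41 promoters hold an E2F site (43.9%), against 5.06% of tested genes (552 of 10911) and 3.33% of all promoters. The share was 12.9% in genes at least 2-fold higher (35 of 272) and 4.48% in those at least 2-fold lower (10 of 223). Lists that mostly fell also held such a site, among them sensors of the unfolded protein response (3 of 13) and ER-associated degradation (3 of 17). It was also in 2 of 5 snoRNA hosts. Of lists that rose, E2F and DREAM factors held it in 5 of 14 and mitotic genes in 3 of 36.

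Repair genes of homologous recombination, the Fanconi pathway and the checkpoint rose with replication. Of 29 tested 22 rose and 2 fell (median 0.76), or 1 fell without either array without glucose or without the second with glucose. BRIP1, a helicase that partners BRCA1, read 6.45 and 6.45 without glucose and 8.34 and 8.27 with glucose. EXO1, an exonuclease of end resection, read 6.56 and 6.56 without glucose and 8.42 and 8.34 with glucose. RMI2, which helps dissolve crossed strands, read 8.57 and 8.53 without glucose and 10.18 and 10.11 with glucose. These rose 3.61-fold, 3.53-fold and 3.02-fold, with no overlap between groups. BARD1 (1.57 ± 0.094) rose more than its partner BRCA1 (0.87 ± 0.097), and the checkpoint kinase CHEK1 rose by 0.76 with 1 of its 4 probe sets lower. FANCF fell (-0.45 ± 0.065), and the damage kinase ATM fell by 0.32, the call that was lost on leaving out those arrays.

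Mitotic genes rose too. Of 41 genes of G2 and mitosis 36 rose and 0 fell, with a median of 0.51 and 3 up at least 2-fold. KIF11, the motor that parts the spindle poles, read 9.03 and 9.08 without glucose and 10.34 and 10.21 with glucose. KIF20A, a motor of cytokinesis, read 8.96 and 8.97 without glucose and 9.89 and 9.81 with glucose. AURKA, a kinase of spindle assembly, read 10.74 and 10.73 without glucose and 11.64 and 11.59 with glucose. Both arrays with glucose were higher in each, by 1.22 ± 0.085, 0.89 ± 0.065 and 0.88 ± 0.062. CCNB1 (0.55 ± 0.071), TOP2A (0.51 ± 0.075), MELK (0.86 ± 0.072) and the kinase PLK1 (0.30 ± 0.068) rose too.

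Many mitotic promoters carry the cell cycle genes homology region (CHR), searched as TTTGAA, which the DREAM and MYB-MuvB complexes bind. KIF11 is shown as the member with the largest rise of those named above.
KIF11 (chr10:92592880-92593129, plus strand): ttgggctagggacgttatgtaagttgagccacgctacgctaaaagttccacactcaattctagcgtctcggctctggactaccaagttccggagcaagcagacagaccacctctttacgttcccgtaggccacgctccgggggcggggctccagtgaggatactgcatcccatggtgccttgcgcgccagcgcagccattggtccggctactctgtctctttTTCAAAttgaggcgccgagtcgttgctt
Its match lies on the opposite strand and begins at -28 from the start. The element was found in 25 of 36 mitotic promoters (69.4%), against 9.75% of tested genes (1064 of 10911), 15.4% of all promoters, 15.4% of genes at least 2-fold higher (42 of 272) and 9.42% of those at least 2-fold lower (21 of 223).

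**Figure D3:**
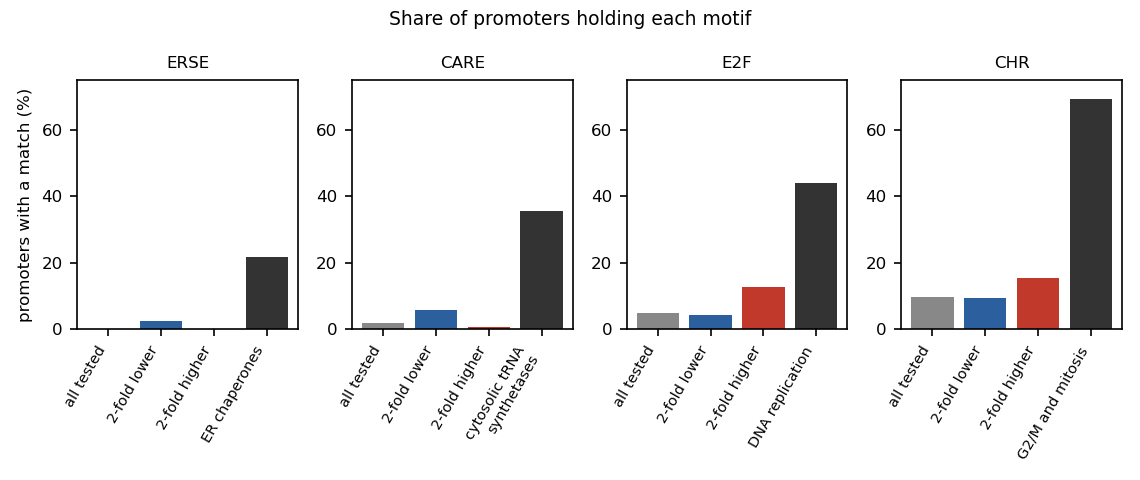
Bars give the percentage of promoters, from 250 bases before to 50 after the start, that hold each motif on either strand: all tested genes, genes at least 2-fold lower or higher with glucose, and the list that the motif is known for. ERSE was in 21.9% of ER chaperones, CARE in 35.7% of cytosolic tRNA synthetases, E2F in 43.9% of replication genes and CHR in 69.4% of mitotic genes. The sterol regulatory and heat shock elements were also searched, and their shares are given in the text.

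Upstream of these programmes, cyclins and E2F genes rose. Of the 9 G1 cyclins and kinases tested, 7 rose and 0 fell (median 1.35). CCNE2, cyclin E2, read 6.33 and 6.26 without glucose and 8.51 and 8.43 with glucose. SKP2, which marks the inhibitor p27 for degradation, read 8.01 and 8.0 without glucose and 9.82 and 9.85 with glucose. CDK2, the partner of cyclin E, read 7.98 and 7.98 without glucose and 9.47 and 9.48 with glucose. The rises were 4.50-fold, 3.55-fold and 2.82-fold. CCND3 (1.35 ± 0.061), CCNE1 (1.21 ± 0.077) and CCND1 (0.65 ± 0.081) rose. Of 6 genes listed as inhibitors 1 rose and 2 fell (median -0.22). CCNG2, a cyclin of arrested cells, fell 2.36-fold, and CDKN1A, the inhibitor p21, fell by 0.30, a call lost under centring on ribosomal protein genes. CDKN1B, which encodes p27, differed by -0.23 ± 0.085 and missed the threshold (adjusted p = 0.0526, limma), but was called without the first array without glucose and under 5 other alternatives (quantile normalization, a filter at the 60th percentile, averaged probe sets, a prior that follows mean signal and the replicate block).

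Among 17 E2F and DREAM genes 11 rose and 1 fell (median 0.55). E2F8, an atypical member that represses replication genes late in S phase, read 6.18 and 6.30 without glucose and 8.47 and 8.47 with glucose and rose 4.70-fold. E2F2 (1.36 ± 0.16), the pocket protein gene RBL1 (1.5 ± 0.14), TFDP1 (0.85 ± 0.079) and the mitotic activator FOXM1 (0.56 ± 0.07) rose. E2F1 read 7.95 and 7.72 without glucose and 8.19 and 8.50 with glucose and rose by 0.51, not without the second array without glucose. E2F5, a repressor, fell by 0.29, a call lost under centring on ribosomal protein genes.

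Of 10 genes of DNA methylation 7 rose and 1 fell. UHRF1, which brings the maintenance methylase to replicated DNA, read 9.34 and 9.29 without glucose and 10.64 and 10.69 with glucose, and that methylase, DNMT1, rose by 0.51. CDCA7, the partner of HELLS, rose 2.53-fold. TET1, which oxidises methylcytosine, read 4.71 and 4.69 without glucose, both below the filter (4.80), and 5.95 and 5.68 with glucose. The only fall, DNMT3A (-0.31 ± 0.092), was lost without the first array without glucose or the second with glucose. Clustered histone genes had no common direction. Of 16 tested 6 rose and 2 fell, with a median of 0.046. That median was 0.51, with 1 fall, when the filter was set at the 60th percentile, and -0.054, with 2 rises, without _s_at and _x_at probe sets. H2BC4 rose (1.05 ± 0.081), as did H2BC6, H2BC5 and H2BC12 by between 0.53 and 0.62, while H2AC6 (-0.58 ± 0.077) and H3C6 (-0.41 ± 0.088) fell, the latter not when its probe sets were averaged. These genes are near-identical copies, most of whose messages lack a poly(A) tail, so their signals are uncertain.

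Cholesterol and fatty acid synthesis rose with glucose. Of 21 cholesterol genes 16 rose and 1 fell (median 0.53), and of 15 genes of fatty acid synthesis 12 rose and 0 fell (median 0.59). INSIG1, which retains the factors SREBP in the ER and is itself their target, read 8.92 and 9.05 without glucose and 10.69 and 10.58 with glucose. LSS, which closes the sterol rings, read 8.89 and 8.67 without glucose and 10.14 and 10.09 with glucose. HMGCS1, an early enzyme of the pathway, read 9.06 and 9.07 without glucose and 10.04 and 10.11 with glucose. Each rose at least 2-fold, by 1.65 ± 0.15, 1.34 ± 0.10 and 1.01 ± 0.17. EBP (0.87 ± 0.077), ACAT2 (0.92 ± 0.087) and SQLE (0.81 ± 0.077) rose. The fall was STARD4, a sterol carrier (-0.52 ± 0.069).

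Fatty acid synthase, FASN, read 7.64 and 7.62 without glucose and 8.54 and 8.45 with glucose. ACACA, which supplies its malonyl units, read 8.96 and 8.78 without glucose and 9.77 and 9.47 with glucose. The desaturase SCD read 11.95 and 12.10 without glucose and 12.87 and 12.78 with glucose. These rose 1.82-fold, 1.68-fold and 1.74-fold. LPIN1, a phosphatidate phosphatase, rose 2.10-fold, GPAM, which starts glycerolipid synthesis, 1.94-fold, and the desaturases SCD5 and FADS2 1.89-fold and 1.51-fold. SLC25A1, the mitochondrial citrate exporter that provides carbon for this synthesis, rose by 0.67. The sterol regulatory element (SRE), which SREBP binds, was searched in the same promoters as the motifs above. It was found in 1 of 19 cholesterol promoters (5.26%) and 0 of 13 of fatty acid synthesis, against 6 of 10911 tested genes (0.055%). Of genes at least 2-fold higher 0 of 272 held it, and of those at least 2-fold lower 0 of 223.

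**Figure D4:**
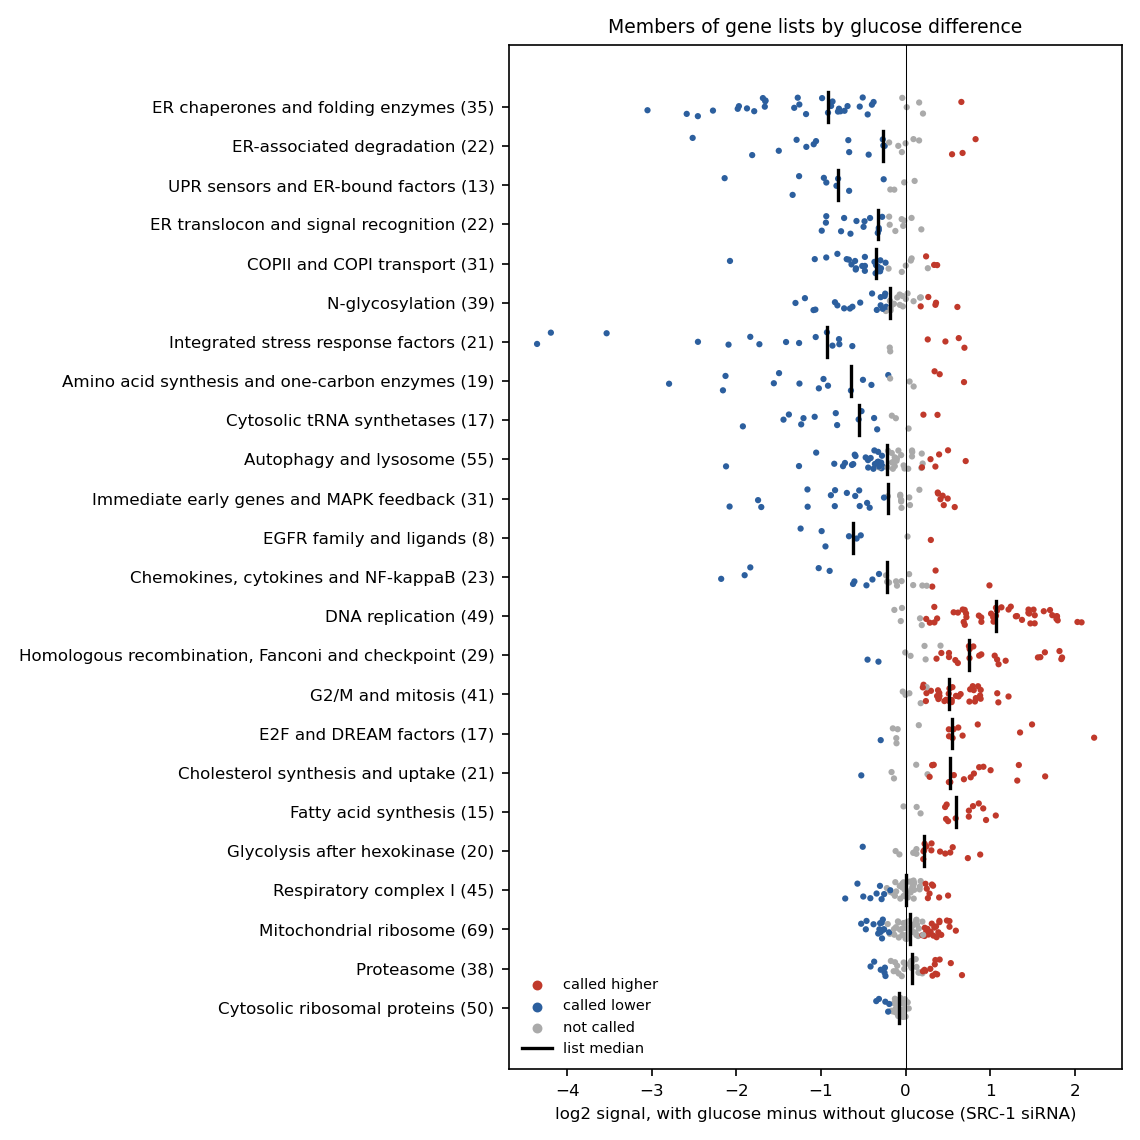
Each point is a tested member of a gene list (number tested in brackets) in cells with SRC-1 siRNA; the horizontal axis is log2 signal with glucose minus without, and black bars are list medians. ER chaperones have a median of -0.92 and integrated stress response factors -0.93, whereas DNA replication has 1.07, and the proteasome, complex I and both kinds of ribosome are centred near 0.

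Genes that take up and trap glucose changed one by one. Hexokinase HK2, the inducible form, read 7.43 and 7.38 without glucose and 5.39 and 5.07 with glucose and fell 4.51-fold, with both probe sets lower. HKDC1, a related hexokinase, read 11.48 and 11.47 without glucose and 10.27 and 10.20 with glucose and fell 2.36-fold. HK1, the widespread form, read 10.27 and 9.96 without glucose and 10.61 and 10.52 with glucose and rose by 0.45. HK2 and HKDC1 were therefore higher in cells without glucose and HK1 was lower. Of the carriers, SLC2A3 (GLUT3) read 8.56 and 8.72 without glucose and 9.52 and 9.60 with glucose and rose, as did SLC2A13 (1.03 ± 0.096), which carries inositol, and SLC2A12 (0.70 ± 0.12). SLC2A1 (GLUT1) read 9.63 and 9.52 without glucose and 9.36 and 9.37 with glucose, a difference of -0.21 ± 0.082 that was not called. It was called lower with a filter at the 60th percentile and with a prior that follows mean signal.

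Glycolysis after hexokinase rose by modest amounts. Of 20 genes 13 rose and 1 fell (median 0.22), though 7 rose without the first array without glucose and 8 rose, with 2 falls, without the second with glucose. PFKFB3, which makes the activator of phosphofructokinase, read 10.79 and 10.88 without glucose and 11.69 and 11.75 with glucose, a 1.84-fold rise. ENO2 (0.74 ± 0.088), PKM (0.53 ± 0.069), PFKM (0.47 ± 0.066) and LDHA (0.31 ± 0.06), which makes lactate, rose. PFKFB2, a second enzyme of the PFKFB3 kind, fell (-0.51 ± 0.09), and the platelet phosphofructokinase PFKP was not called (-0.073 ± 0.064). In the pentose phosphate pathway 4 of 9 genes rose and 2 fell, with 2 rises without the first array of either group. PRPS2 (0.75 ± 0.076) and PRPS1 (0.70 ± 0.064), which make phosphoribosyl pyrophosphate for nucleotides, rose. PGLS (-0.48 ± 0.087) and H6PD (-0.40 ± 0.078), the latter in the ER, fell.

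The sugar-sensing pair MondoA and ChREBP drives TXNIP and ARRDC4, which are widely used readouts of glucose entry. TXNIP read 5.99 and 6.22 without glucose and 6.23 and 6.00 with glucose, so the groups overlapped, and its difference of 0.013 ± 0.11 was not called (95% interval -0.23 to 0.26). ARRDC4 read 4.79 and 4.57 without glucose, both below the filter, and 5.21 and 5.33 with glucose. It rose by 0.59, a call lost without the second array of either group. The related ARRDC3 rose (0.57 ± 0.10). KLF10, another target, fell (-0.38 ± 0.079). The list held 3 rises and 2 falls among 9 genes, and 1 rise without the second array without glucose. MLX, the shared partner, fell by 0.31 on its brightest probe set, and the brightest probe set without an _s_at or _x_at ending gave 0.0055.

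The hexosamine pathway makes the sugar donor for glycans and for O-GlcNAc, a modification of nuclear and cytosolic proteins. GFPT1, which commits sugar to it, read 11.86 and 12.01 without glucose and 10.40 and 10.37 with glucose. UAP1, which makes the donor, read 10.69 and 10.60 without glucose and 9.54 and 9.66 with glucose. OGT, which attaches O-GlcNAc, read 11.41 and 11.22 without glucose and 10.31 and 10.26 with glucose, and OGA, which removes it, read 8.44 and 8.65 without glucose and 10.15 and 10.06 with glucose. Of 10 genes of the list 5 fell and 4 rose. Rises numbered 2 on leaving out any 1 of the 4 arrays, falls 3 without the first array of either group, and the median of -0.065 became 0.079 under centring on ribosomal protein genes. GFPT1, UAP1 and OGT fell 2.93-fold, 2.06-fold and 2.04-fold, while OGA rose 2.95-fold. The writer and the eraser of the mark were thus called in opposite directions, though the call of OGA was lost when probe sets ending in _s_at or _x_at were dropped. All 5 probe sets of OGT fell. GNPDA2, which runs the pathway backward, rose (0.69 ± 0.088).

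Genes of N-glycosylation fell most uniformly at the transfer step. Of 39 genes 18 fell and 5 rose (median -0.18), or 10 and 7 under centring on ribosomal protein genes. Rises numbered 3 without the second array without glucose and 2 without the first with glucose. Among 9 subunits of the oligosaccharyltransferase 8 fell and 0 rose (median -0.54), including MAGT1 (-1.07 ± 0.072), OSTC (-0.84 ± 0.07) and the catalytic STT3A (-0.73 ± 0.062). Of 19 genes that assemble the lipid-linked sugar 5 fell and 4 rose, and their median of -0.069 turned positive under that centring. DPAGT1, the first enzyme, fell (-0.81 ± 0.069), and GMPPA fell 2.47-fold, but ALG6 (0.61 ± 0.065) and DOLK (0.36 ± 0.064) rose. Of 11 genes of glycan trimming 5 fell and 1 rose (median -0.18). The folding sensors UGGT2 (-1.19 ± 0.089) and UGGT1 (-1.09 ± 0.094) fell, the latter on all 5 probe sets.

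The rest of the secretory route fell too. Of 22 translocon and signal recognition genes 14 fell and 0 rose (median -0.32), with 2 rises under that centring. SEC11C, a subunit of signal peptidase, read 11.19 and 11.20 without glucose and 10.17 and 10.23 with glucose. SSR3, of the complex beside the translocon, read 12.62 and 12.66 without glucose and 11.66 and 11.74 with glucose. SEC61A1, the channel itself, read 10.82 and 10.80 without glucose and 10.00 and 10.10 with glucose. None of these overlapped between groups. SEC61B, the small channel subunit, differed by -0.19 ± 0.071 and was not called. It was called lower under quantile normalization, a filter at the 60th percentile, averaged probe sets and a prior that follows mean signal. In vesicle transport 22 of 31 genes fell and 3 rose (median -0.35), with 1 rise without the first array without glucose and 5 rises under centring on ribosomal protein genes. Of 19 COPI and cargo receptor genes 16 fell and 0 rose, among them COPA (-0.94 ± 0.074), COPG1 (-0.81 ± 0.08), ARFGAP3 (-1.07 ± 0.11), TMED9 (-0.64 ± 0.06) and KDELR3 (-0.67 ± 0.082), a receptor that returns ER proteins. Of 12 COPII genes 6 fell and 3 rose, and SEC24D, a cargo adaptor, read 8.76 and 9.11 without glucose and 6.93 and 6.79 with glucose and fell 4.22-fold. SEC24B, a paralog, rose by 0.37, not without the first array without glucose.

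Genes of the respiratory complexes and of mitochondrial ribosomes showed no common direction. In complex I 8 of 45 genes rose and 9 fell, and in complexes III to V 7 of 38 rose and 3 fell, against 24.6% and 20.0% of all genes. Their medians were 0.0052 and 0.0059. The counts depend on few arrays: complex I had 5, 4 and 5 rises without the first array without glucose, the second without glucose and the second with glucose. Without the second array without glucose complexes III to V had 4 rises, and on leaving out any 1 of the 4 arrays they had 1 fall. Centring on ribosomal protein genes gave 20 rises and 5 falls in complex I and 16 and 1 in complexes III to V. NDUFB3 (0.50 ± 0.074) rose and NDUFS4 (-0.50 ± 0.061) and the assembly factor NDUFAF3 (-0.57 ± 0.07) fell in complex I. COX15 (0.51 ± 0.067) and ATP5MC3 (0.44 ± 0.071) rose and SURF1 (-0.49 ± 0.061) fell further down the chain. Mitochondrial ribosomal proteins held 20 rises and 14 falls among 69 genes (median 0.047), with 9 falls without either array without glucose, and 35 rises and 5 falls under that centring. MRPL49 rose (0.52 ± 0.061) and MRPL10 fell (-0.52 ± 0.062). The lists of mitochondrial carriers and of biogenesis regulators held more rises than falls. Of 35 SLC25 carriers 14 rose (40%) and 5 fell (median 0.15), or 23 and 4 under that centring. Of 12 biogenesis regulators 5 rose (41.7%) and 1 fell (median 0.16), or 3 and 2 when probe sets were averaged.

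Messages of enzymes that switch the pyruvate dehydrogenase complex on or off changed. PDK4, a kinase that inactivates the pyruvate dehydrogenase complex, read 8.24 and 8.53 without glucose and 10.31 and 10.32 with glucose and rose 3.80-fold. PDK3, of the same family, read 7.56 and 7.52 without glucose and 8.70 and 8.44 with glucose, with all 5 probe sets higher. PDP1, the phosphatase that turns the enzyme on, read 9.52 and 9.61 without glucose and 8.65 and 8.57 with glucose and fell 1.95-fold. The inhibiting kinases were thus higher and the activating phosphatase lower with glucose, while PDK1 was not called (0.19 ± 0.094), but was without the second array with glucose and under centring on ribosomal protein genes. MPC2 (0.56 ± 0.088) and MPC1 (-0.44 ± 0.078), subunits of the carrier that brings pyruvate into mitochondria, were called in opposite directions. Of 14 TCA cycle genes 5 rose and 0 fell (median 0.051), among them SUCLA2 (0.47 ± 0.077). In fatty acid oxidation 5 of 21 rose and 3 fell (11 and 2 under centring on ribosomal protein genes), with HADH the furthest up (0.89 ± 0.073) and ECI1 the furthest down (-0.51 ± 0.076). CPT1A, the gate of that pathway, rose by 0.49, a call lost when its 4 probe sets were averaged.

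The title of the series names NAD(+) and NADH, which shuttles carry across the mitochondrial membrane as reducing equivalents. SLC25A12, an aspartate-glutamate carrier, read 6.88 and 6.85 without glucose and 8.07 and 7.89 with glucose. SLC25A13, its paralog, read 9.37 and 9.47 without glucose and 10.25 and 10.22 with glucose. GOT1, the cytosolic transaminase of the same shuttle, read 10.84 and 10.84 without glucose and 9.58 and 9.59 with glucose. The carriers rose 2.16-fold and 1.76-fold while GOT1 fell 2.39-fold, so the malate-aspartate shuttle was not called in 1 direction. In the glycerol phosphate shuttle GPD2 rose (0.76 ± 0.082) and GPD1L fell (-0.83 ± 0.077). The malate dehydrogenase of the cytosol, MDH1, differed by 0.0036 (95% interval -0.15 to 0.15). Of 32 genes that make or use NAD 10 fell and 3 rose (median -0.17), or 7 and 10 under centring on ribosomal protein genes. NAMPT, which salvages nicotinamide, read 11.62 and 11.87 without glucose and 11.69 and 11.50 with glucose and was not called. It was called lower when its probe sets were averaged. NMNAT2 fell 2.53-fold, the nicotinamide riboside kinase NMRK1 by 0.51 and NADK, which makes NADP, by 0.60. TDO2, which starts the route from tryptophan, read 4.48 and 4.62 without glucose, both below the filter, and 5.82 and 5.98 with glucose and rose. KYNU of that route rose by 0.57. SIRT1, a deacetylase that consumes NAD, was not called (-0.26 ± 0.12), but was without the first array without glucose and with a prior that follows mean signal, and PARP1 rose (0.33 ± 0.071).

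Genes of ribosomes and proteasomes changed little. Ribosomal protein probe sets had medians between 13.35 and 13.50 on the 4 arrays, whose maxima lay between 14.66 and 14.68. Whether signals this high understate differences was not tested. Of 50 cytosolic ribosomal proteins 0 rose and 5 fell, with a median of -0.08 that became 0.064 when the arrays were centred on these same genes. Falls numbered 2 or 3 when any of the 4 arrays was left out and 18 with a prior that follows mean signal. RPL3 (-0.35 ± 0.065) and RPL12 (-0.31 ± 0.062) fell most. In the proteasome 12 of 38 rose and 6 fell (median 0.071), with 3 falls without the first array of either group, and 22 rises and 2 falls under that centring. PSMD1, a scaffold of the regulatory particle, rose by 0.67 ± 0.065, PSMD6 by 0.40 ± 0.066 and the ATPase PSMC2 by 0.37 ± 0.062.

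Of 21 listed transcripts that host small nucleolar RNAs, 5 were tested and 4 of those fell. ZFAS1 read 13.10 and 13.16 without glucose and 11.65 and 11.79 with glucose. EPB41L4A-AS1 read 10.82 and 10.89 without glucose and 8.72 and 8.66 with glucose. SNHG32 read 11.30 and 11.30 without glucose and 9.69 and 9.57 with glucose. These fell 2.66-fold, 4.49-fold and 3.18-fold, and SNHG17 fell by 0.62. The other host, the protein-coding TMEM107, rose (0.33 ± 0.069). Without _s_at and _x_at probe sets 2 hosts fell. GAS5 was on the table but too dim to be tested.

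Autophagy genes were mostly lower with glucose. Of 30 autophagy genes 16 fell and 2 rose (median -0.28), and of 25 lysosome genes 10 fell and 4 rose. Over both, the counts of 26 falls and 6 rises became 18 and 12 under centring on ribosomal protein genes. WIPI1, which marks the forming autophagosome, read 10.05 and 10.18 without glucose and 8.11 and 7.87 with glucose. MAP1LC3B, which coats it, read 11.55 and 11.56 without glucose and 10.35 and 10.23 with glucose. ATG13, of the initiating kinase complex, read 8.79 and 8.76 without glucose and 7.74 and 7.69 with glucose. They fell 4.36-fold, 2.40-fold and 2.08-fold. The kinase ULK1 (-0.84 ± 0.095) and the cargo receptor SQSTM1 (-0.41 ± 0.074) fell as well. TFEB, the master factor of lysosome genes (0.076 ± 0.065), and LAMP1 (-0.11 ± 0.074) were not called, and the lysosomal enzyme GLA rose (0.71 ± 0.069). TFEB was called higher when its probe sets were averaged and under centring on ribosomal protein genes.

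Most heat shock genes of the cytosol and mitochondria did not fall with HSPA6. Of 29 cytosolic and mitochondrial chaperones 13 rose and 4 fell (median 0.14). HSPA2 read 8.44 and 8.39 without glucose and 10.73 and 10.67 with glucose. HSPA14 (0.98 ± 0.065), HSPA4 (0.54 ± 0.061) and HSPA12A (0.54 ± 0.076) rose with it. DNAJB1, a classical target of the heat shock factor, read 10.48 and 10.27 without glucose and 10.06 and 10.15 with glucose and was not called (-0.27 ± 0.18), except without either control array without glucose, which changes the spread. The mitochondrial HSPA9 fell by 0.39 on its brightest probe set, and the brightest probe set without an _s_at or _x_at ending gave 0.029. The list also holds SERPINH1, the collagen chaperone, which resides in the ER and fell (-0.65 ± 0.10). The heat shock element (HSE) was searched in promoters as well. It was in 5 of 26 promoters of this list (19.2%), HSPA6 and SERPINH1 among them, against 42 of 10911 tested genes (0.385%). Of genes at least 2-fold lower 1 of 223 held it, and of those at least 2-fold higher 0 of 272. Genes driven by NRF2, which is active in A549, rose in 11 and fell in 2 of 26 (median 0.19). Rises numbered 6 without the first array without glucose and 7 without the first with glucose, and 19 under centring on ribosomal protein genes, and falls 1 without any array except the first without glucose. GPX2 rose most (0.92 ± 0.065), CBR1 rose by 0.59 and AKR1B10 by 0.28, while TXNRD1 (0.059 ± 0.062) and GCLM (-0.019 ± 0.08) were not called. Under that centring TXNRD1 was called higher.

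Growth factor and immediate early genes were lower with glucose. Of 14 AP-1, EGR and MYC genes 10 fell and 2 rose (median -0.57). EGR1 read 8.34 and 7.94 without glucose and 6.14 and 5.98 with glucose. FOSL1 read 8.45 and 8.29 without glucose and 7.58 and 7.50 with glucose. MYC read 10.95 and 10.85 without glucose and 10.28 and 10.33 with glucose. All 3 were lower on both arrays with glucose, by -2.08 ± 0.33, -0.83 ± 0.12 and -0.60 ± 0.071. JUN fell (-0.54 ± 0.096), and FOSB fell (-1.16 ± 0.15) to a dim signal. Of the phosphatases that end MAP kinase signals DUSP5 (-1.71 ± 0.068), DUSP6 (-1.16 ± 0.091) and DUSP1 (-0.88 ± 0.076) fell and DUSP16 rose (0.58 ± 0.073). The 17 phosphatase and Sprouty genes held 5 falls and 5 rises. In the EGFR family 6 of 8 genes fell. EGFR itself read 10.13 and 10.19 without glucose and 9.36 and 9.07 with glucose, and the ligand HBEGF read 8.62 and 8.01 without glucose and 7.08 and 7.07 with glucose. BTC (-0.99 ± 0.089), EREG (-0.67 ± 0.13), TGFA (-0.58 ± 0.10) and the inhibitor ERRFI1 (-0.53 ± 0.067) fell with them.

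Several secreted factors fell. CXCL2, a neutrophil chemokine, read 9.76 and 9.70 without glucose and 7.56 and 7.54 with glucose. CXCL8, another, read 9.82 and 9.89 without glucose and 7.95 and 7.96 with glucose. IL11 read 8.73 and 8.62 without glucose and 6.85 and 6.83 with glucose. They fell 4.54-fold, 3.74-fold and 3.57-fold. CXCL3 (-1.03 ± 0.10), RELB (-0.90 ± 0.069) and IL6 (-0.62 ± 0.082) fell, IL6 to a dim signal. CCL2 rose instead (0.99 ± 0.11). Over the 23 genes 10 fell and 3 rose, with 1 rise without the first array of either group and 5 under centring on ribosomal protein genes. STC2, a glycoprotein induced through ATF4, read 9.43 and 9.39 without glucose and 6.83 and 6.98 with glucose and fell 5.68-fold. VEGFA, which drives vessel growth, read 10.09 and 10.25 without glucose and 9.03 and 9.09 with glucose, with all 4 probe sets lower. GDF15, a stress hormone, fell by 0.61. Of 7 secreted stress factors tested 3 fell and 1 rose. IGFBP1, an IGF-binding protein that rises in starvation, read 11.08 and 11.32 without glucose and 9.31 and 9.40 with glucose and fell 3.59-fold, whereas the adaptor IRS1 rose 2.45-fold, with all 3 probe sets higher.

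Hypoxia-linked genes did not move with VEGFA. Of 20 tested 7 rose and 2 fell, with 1 fall without the second array of either group and 11 rises under centring on ribosomal protein genes. EGLN3, a prolyl hydroxylase that marks HIF for destruction, read 5.53 and 5.31 without glucose and 7.36 and 7.42 with glucose and rose 3.92-fold. EGLN1 (0.56 ± 0.083), HIF1AN (0.60 ± 0.082) and CA12 (0.49 ± 0.076) rose, NDRG1 fell (-0.77 ± 0.095) and HIF1A was not called (-0.087 ± 0.064). Apoptosis genes held 9 falls and 2 rises among 26. Rises numbered 1 without the second array with glucose or either array without it, and 7 under centring on ribosomal protein genes. PMAIP1, which encodes NOXA, read 10.87 and 10.88 without glucose and 9.45 and 9.62 with glucose. TNFRSF10B, the death receptor DR5 and a target of CHOP, read 12.27 and 12.29 without glucose and 11.65 and 11.68 with glucose, and its 3 probe sets all fell. BIK (-0.52 ± 0.09) and HRK (-0.83 ± 0.16) of the same killer class as NOXA fell.

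Feedback genes of the Wnt pathway and genes of the BMP pathway were among the rises. RNF43, a ligase that removes Wnt receptors, read 5.87 and 5.98 without glucose and 8.13 and 8.08 with glucose. AXIN2, a brake on beta-catenin, read 5.05 and 4.97 without glucose and 6.99 and 7.23 with glucose, with its second probe set not called (-0.14). ZNRF3, a paralog of RNF43, read 7.56 and 7.70 without glucose and 9.21 and 8.99 with glucose. These rose 4.54-fold, 4.30-fold and 2.78-fold, while DKK1 was -0.0031 ± 0.069 and not called. In the BMP list 8 of 11 genes rose and 1 fell (median 0.77), including all 4 ID genes. Without _s_at and _x_at probe sets 3 rose and the median was 0.19, and with probe sets averaged it was 0.50. ID1 read 11.27 and 11.07 without glucose and 12.30 and 12.44 with glucose, ID2 and ID3 rose by 0.77 and 0.62, and the ligand BMP4 rose 2.67-fold. The 1 fall, SMAD5 (-0.41), rested on probe sets that disagreed, 2 higher and 2 lower. Targets of YAP and TGF-beta divided, with 8 of 17 lower, among them CCN2 (-1.07 ± 0.083) and CCN1 (-0.89 ± 0.078), and 6 higher. Rises there numbered 3 without the first array of either group and 2 without the second without glucose.

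Nuclear receptors and their coregulators are the setting in which SRC-1 acts. Of 30 receptors 10 rose and 2 fell (median 0.17), or 17 and 2 under centring on ribosomal protein genes. NR2F1 read 6.36 and 6.03 without glucose and 7.40 and 7.42 with glucose and rose 2.33-fold. NR5A2 (0.68 ± 0.08) and the glucocorticoid receptor NR3C1 (0.44 ± 0.076, all 4 probe sets higher) rose, and the clock receptor NR1D2 fell (-0.71 ± 0.091). Of 19 coregulators 8 rose and 2 fell, with 0 falls without the first array of either group, and 13 rises and 0 falls under that centring. TBL1XR1 (0.98 ± 0.085), NCOA5 (0.75 ± 0.089) and TBL1X (0.53 ± 0.066) rose. NCOA2, a relative of SRC-1, read 9.13 and 9.32 without glucose and 9.63 and 9.37 with glucose and missed the threshold (adjusted p = 0.051, limma), though it was called without the second array of either group and under 5 other alternatives (centring on ribosomal protein genes, a filter at the 60th percentile, averaged probe sets, a prior that follows mean signal and array weights). Target genes of the glucocorticoid receptor went both ways: FKBP5 read 8.24 and 8.14 without glucose and 9.42 and 9.20 with glucose and rose 2.17-fold, whereas TSC22D3 read 9.76 and 9.71 without glucose and 8.42 and 8.36 with glucose and fell 2.54-fold.

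In the circadian clock 6 of 14 genes fell and 3 rose, or 4 and 6 under centring on ribosomal protein genes. The activators BMAL1 (-0.62 ± 0.064) and NPAS2 (-0.65 ± 0.079, all 5 probe sets lower) fell, and the repressor NFIL3 fell 2.42-fold. PER3 rose (1.05 ± 0.22), with its 2 arrays with glucose 6.17 and 5.47 and those without 4.56 and 4.99, all close to the filter. Interferon-stimulated genes had a median of -0.023 (0.12 under centring on ribosomal protein genes), with 6 rises and 3 falls among 17. IFIT1 rose 2.80-fold from dim signals of 4.36 and 4.18, both below the filter, which it passed only through other arrays. OAS3 (1.03 ± 0.09), USP18 (0.89 ± 0.061) and OAS1 (0.87 ± 0.098) rose, whereas ISG20 (-0.51 ± 0.074) and IRF7 (-0.50 ± 0.092) fell. ISG15 was not called (-0.20 ± 0.094) unless the second array with glucose was left out.

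**Figure D5:**
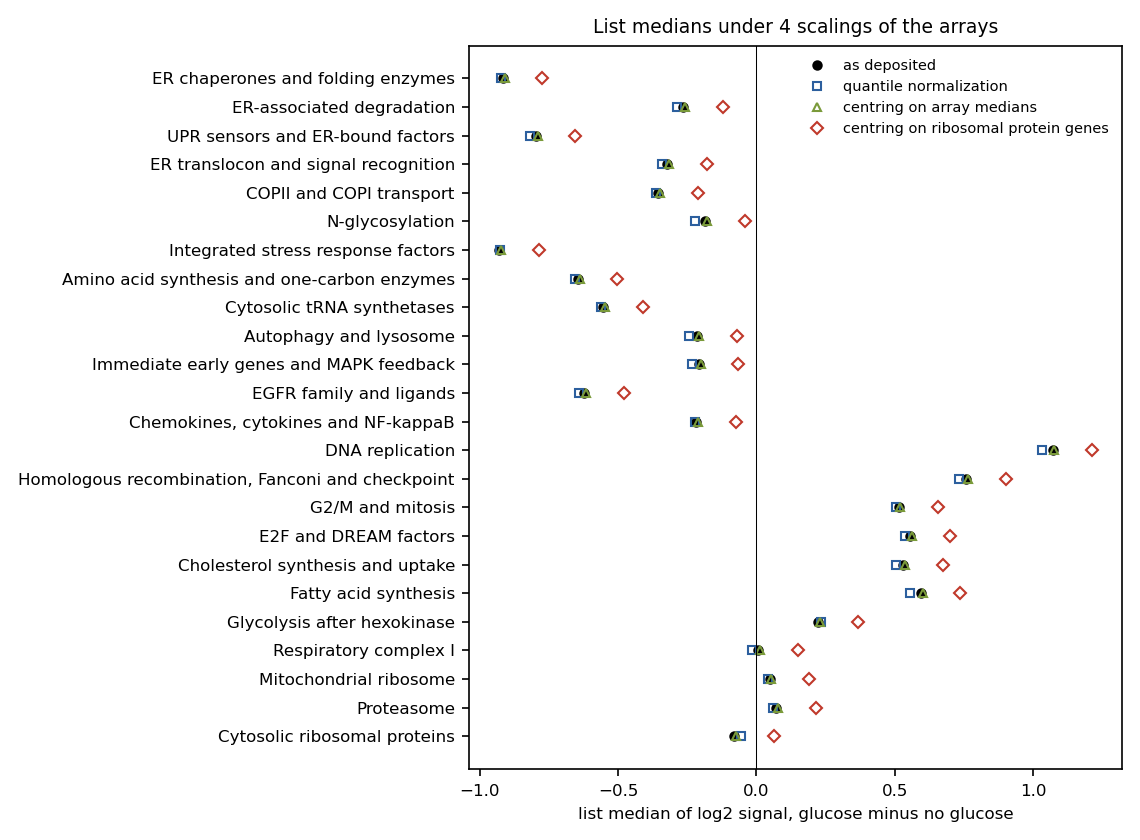
Points are list medians of the log2 difference with glucose minus without, for the deposited values and for 3 other scalings of the arrays. Centring on ribosomal protein genes moves every list shown to the right, by about the shift of all genes, and carries the median of the cytosolic ribosomal proteins across 0 while the ER, stress, replication and lipid lists keep their side.

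The balance of rises and falls depended on what was held constant between arrays, which the authors' normalization, not given in the sources used here, had settled before deposit. As deposited, 55.2% of called genes rose. Centring each array on its ribosomal protein probe sets moved the median of all genes from 0.0059 to 0.15, and 75% of called genes then rose (5239 of 6987). The median of ER chaperones was then -0.77, that of integrated stress response factors -0.79, that of DNA replication 1.21 and that of cholesterol genes 0.67. Of the 6070 calls 5096 were kept under it and 0 were called in the opposite direction. Array totals of RNA per cell were not measured, so a general change in RNA content cannot be told apart from its absence. For the same reason a lower signal of one list among other genes is a relative statement.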

How the data were processed

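Total RNA of A549 cells was measured on 8 Affymetrix arrays, 2 per group. The values are the deposited log2 signals per probe set (that they are log2 was read from the values). The authors' background correction and normalization are not given in the sources used here. Of 54675 probe sets, 41091 had a single gene in the platform annotation, which can be old, and the filter kept those whose mean signal over the 8 arrays reached its 40th percentile (log2 4.80). Each of 13584 genes was tested through its brightest probe set with limma 3.58.1 in R 4.3.3 (4 group means, all 8 arrays, empirical Bayes, Benjamini-Hochberg adjustment at 0.05). An exact permutation test of 2 against 2 arrays cannot go below p = 0.333. Precision is limited by the number of arrays, with a median SE of 0.0834. The fit was tested on simulated data with independent noise and a far smaller share of changed genes than was called here. Such data cannot test the effect of normalization or of variation shared between genes. RefSeq promoters matched 10911 tested genes by gene symbol.

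The members and the 58 gene lists were chosen with earlier results of these data known. Named genes were NCOA1, the 15 largest called rises and falls, and from each list its key members, up to 4 with the smallest p, members called against the majority where 5 or fewer, and all members of lists of 14 or fewer. Genes outside this rule were not named with values. Alternatives covered normalization, centring, filter, choice of probe set, prior, array weights, the arrays fitted, a replicate block and each array left out.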

Additional observations from a re-analysis of the deposited data

How the results depend on the processing

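Over the alternatives tried the number of called genes ranged from 4518, without probe sets ending in _s_at or _x_at, to 6987, with arrays centred on ribosomal protein genes. Counts over all genes moved by over 1.5 times only under that centring, to 5239 genes higher, 1748 lower and 496 at least 2-fold higher. Dropping the _s_at and _x_at probe sets left 10597 genes to test, which lowers counts by its construction. Leaving out 1 of the 4 arrays with SRC-1 siRNA gave 4765 to 5263 called genes, 2610 to 2946 higher and 2143 to 2317 lower, 290 to 367 at least 2-fold higher and 276 to 285 at least 2-fold lower. The group left with 1 array was assumed to vary like the others. The replicate numbers did not pair the samples, since the deviations of the 2 groups with the same number correlated at -0.096, and the fit with the replicate number as a block called 5993 genes, 3304 higher and 2689 lower. Among the named genes that were called, the sign turned only with the choice of probe set. When all probe sets per gene were averaged these genes had the opposite sign: BCL2L11 (-0.067), IGF1R (0.17), MAN1A2 (-0.18), PSME3 (0.020), SAR1A (-0.069) and SMAD5 (0.092). Without _s_at and _x_at probe sets these did: CFLAR (0.48), GINS2 (-0.027), HSPA9 (0.029), MLX (0.0055), NDUFV3 (0.23), RPL14 (0.025), UQCR10 (-0.20) and UQCR11 (0.13). Of named genes that were not called, GABPB1 (-0.46) turned when probe sets were averaged, and MDH2 (0.31) and VCP (0.28) without _s_at and _x_at probe sets. Without those probe sets counts fell in many lists, for example to 6 rises in glycolysis after hexokinase, 6 falls in cytosolic tRNA synthetases, 29 rises in DNA replication, 10 rises in cholesterol synthesis and 9 rises in the mitochondrial ribosome, and the median of immediate early genes and MAPK feedback became -0.057. The cause was not tested.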

Other observations

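Gene families that share a symbol stem of at least 10 tested genes were also counted; those named here were picked after their values were seen, so they are descriptions with no test. Of 20 phosphodiesterase genes (stem PDE) 12 rose with glucose and 0 fell, with a median difference of 0.37 on the log2 scale. Of 10 SRSF splicing factor genes 7 rose and 1 fell (median 0.38), and of 13 LSM genes of RNA processing 7 rose and 0 fell (median 0.27). Nucleoporin genes (stem NUP) held 15 rises and 1 fall among 23 (median 0.31). In the other direction, 7 of 11 golgin genes (stem GOLGA) fell and 0 rose (median -0.35).

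By class of gene, 17.9% of 800 long noncoding RNA genes were called lower with glucose (143) and 10.2% higher (82), with a median of -0.060. Of 12522 protein-coding genes 20.2% were lower (2526) and 26.0% higher (3250), with a median of 0.015. Of 186 transcribed pseudogenes 24.7% were lower (46) and 8.06% higher (15), with a median of -0.088. Probe sets for noncoding genes and pseudogenes are often dimmer or share sequence with other genes, and the difference between classes was not tested.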
